A study of Homo sapiens with 4 samples.

Results

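The 66 genes described here encode the ligands and receptors of the 4 classical axon guidance systems: the ephrins and their Eph receptors, the Slits and Robos, the netrins with their UNC5 receptors, and the semaphorins with the plexins. They were chosen by symbol among 20163 protein-coding genes of GENCODE release 44 on chromosomes 1 to 22, X and Y of hg19, and their promoters were compared with the list of new MBD-seq peaks of the wild type condition. UNC50 fits the letters of the UNC5 rule but is no netrin receptor and was left out. The study used HEK293, a human embryonic kidney cell line. The wild type cells had been transiently transfected with dCas9-SunTag, a catalytically dead Cas9 with a tail of peptide epitopes, with the single-chain antibody fused to the catalytic domain of DNMT3A and to DNMT3L (Ab-3A3L), and with an sgRNA directed at the ISG15 CpG island. They were sorted after 3 days for cells that held every plasmid. Cells labelled as untreated served as the comparison in the authors' list, and cells with the K844E and R887E mutants of Ab-3A3L form the other 2 groups. Each of the 4 groups is 1 library, and no library other than the wild type one was analysed here.

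In MBD-seq, DNA with methylated CpGs is captured on MBD2 and sequenced, so a peak stands for a stretch that gave more captured fragments than the background. A peak is called new here because the authors listed it against untreated cells. A promoter without a listed peak did not pass the authors' threshold, and its absence from the list is not a measurement of unmethylated DNA. The paper classed part of the CpG islands as methylated already in untreated cells. A promoter in such an island could lack a new peak for that reason. The state of each promoter before treatment was not examined here. With 1 library there is no replicate spread, and the values below are counts and descriptions without p-values.

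Axon guidance proteins steer growing neurites by attraction or repulsion and are also used outside the nervous system, in vessel growth, cell migration and epithelial boundaries. Ephrin-A ligands are held in the membrane by a lipid anchor and ephrin-B ligands by a transmembrane domain, and both activate Eph receptor tyrosine kinases on the neighbouring cell. Slits are secreted and bind Robo receptors, netrins are secreted and bind DCC and UNC5 receptors, and semaphorins act through plexins, the secreted class mostly with a neuropilin as co-receptor. CpG islands, GC-rich stretches dense in CpGs, mark the start of many genes and are mostly unmethylated in normal cells.

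The sequences below show promoter stretches of genes with and without a new peak. Each is the stretch of 300 bases nearest to the start site on its upstream side that overlaps no annotated untranslated region, read 5′ to 3′ on the gene's strand from the GRCh37 sequence, with every CpG in capitals. PLXNA2 had the highest fold of the receptors and SEMA5B that of the ligands. EFNA5 and EFNA2 are ephrins with and without a new peak, and SEMA3F and SEMA3A are class 3 semaphorins with and without one.
PLXNA2: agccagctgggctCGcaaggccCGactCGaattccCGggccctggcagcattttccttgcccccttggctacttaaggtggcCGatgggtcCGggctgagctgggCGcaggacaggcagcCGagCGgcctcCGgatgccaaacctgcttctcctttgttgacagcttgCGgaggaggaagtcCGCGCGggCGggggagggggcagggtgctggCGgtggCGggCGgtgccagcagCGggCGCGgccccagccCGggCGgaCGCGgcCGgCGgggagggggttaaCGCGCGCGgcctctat
SEMA5B: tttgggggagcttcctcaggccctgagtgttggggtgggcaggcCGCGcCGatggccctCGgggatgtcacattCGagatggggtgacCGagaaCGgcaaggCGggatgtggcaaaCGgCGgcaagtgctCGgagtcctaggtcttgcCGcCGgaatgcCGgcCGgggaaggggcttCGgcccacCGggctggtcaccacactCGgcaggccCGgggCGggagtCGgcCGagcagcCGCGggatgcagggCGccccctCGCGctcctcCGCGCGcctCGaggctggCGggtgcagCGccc
EFNA5: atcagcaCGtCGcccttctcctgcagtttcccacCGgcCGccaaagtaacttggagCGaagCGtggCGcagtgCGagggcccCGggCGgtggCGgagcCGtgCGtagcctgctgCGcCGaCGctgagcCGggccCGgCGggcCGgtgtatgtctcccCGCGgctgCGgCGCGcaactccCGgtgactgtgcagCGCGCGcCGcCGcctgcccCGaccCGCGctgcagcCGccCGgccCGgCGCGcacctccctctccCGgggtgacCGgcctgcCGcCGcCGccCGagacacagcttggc
EFNA2: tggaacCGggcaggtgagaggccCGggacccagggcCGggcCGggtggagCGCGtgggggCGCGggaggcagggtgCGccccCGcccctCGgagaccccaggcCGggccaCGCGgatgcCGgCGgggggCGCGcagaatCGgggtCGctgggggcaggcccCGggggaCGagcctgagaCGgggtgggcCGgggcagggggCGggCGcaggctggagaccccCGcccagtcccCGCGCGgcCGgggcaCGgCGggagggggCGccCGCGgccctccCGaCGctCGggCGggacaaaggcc
SEMA3F: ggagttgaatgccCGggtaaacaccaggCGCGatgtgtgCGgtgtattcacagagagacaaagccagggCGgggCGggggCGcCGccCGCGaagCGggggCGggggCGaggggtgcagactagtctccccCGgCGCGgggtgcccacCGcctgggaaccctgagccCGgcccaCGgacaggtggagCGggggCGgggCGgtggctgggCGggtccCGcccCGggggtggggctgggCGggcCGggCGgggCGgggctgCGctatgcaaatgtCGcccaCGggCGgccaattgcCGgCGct
SEMA3A: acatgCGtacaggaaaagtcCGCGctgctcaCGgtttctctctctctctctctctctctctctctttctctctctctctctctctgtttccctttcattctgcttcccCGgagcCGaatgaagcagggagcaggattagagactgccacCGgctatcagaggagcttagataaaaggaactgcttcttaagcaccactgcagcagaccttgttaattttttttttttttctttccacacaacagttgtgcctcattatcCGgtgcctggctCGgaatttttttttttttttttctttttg

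The PLXNA2 stretch is chr1:208417730-208418029 on the minus strand, holds 31 CpGs and lies wholly inside the new peak. The SEMA5B stretch, chr3:122746731-122747030 on the minus strand, holds 33 CpGs and has 272 of its bases in the peak. For EFNA5 the stretch is chr5:107006639-107006938 on the minus strand, with 45 CpGs, all of it in the peak. EFNA2, with chr19:1285572-1285871 on the plus strand, is of the same kind by composition, with 40 CpGs and a GC content of 83.0%, but has no base under a peak. SEMA3F is shown at chr3:50192177-50192476 on the plus strand, where 35 CpGs lie in the peak. The SEMA3A stretch, chr7:83824106-83824405 on the minus strand, holds 9 CpGs, has a GC content of 45.0% and is not under a peak. SEMA3A is thus CpG-poor and EFNA2 CpG-rich, and neither promoter has a listed peak.

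A new peak overlapped the promoter, the 1000 bp on either side of the canonical start site, in 42 of the 66 genes, or 63.6% (95% exact binomial interval 50.9% to 75.1%, counting error only). Over all coding genes, 41.6% of promoters had one. The 66 promoters held a median of 136 CpGs, against 96 over all coding genes, and 56 of them, or 84.8%, overlapped a CpG island, against 71.8%. Among promoters in islands, 41 of 56 axon guidance genes had a new peak, or 73.2%, against 57.4% of all coding genes in islands. Islands were also taken by stricter limits, 500 bp in length, 55% in GC and 0.65 in the observed/expected CpG ratio, and there it was 40 of 53 axon guidance genes, against 64.7%. Outside islands 1 of 10 had one, SEMA4A, against 1.4% of all coding genes outside islands. The genes were not drawn at random and are not independent samples, and whether CpG number accounts for the higher share was not tested.

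The shares were also taken over promoters grouped by their number of CpGs. With 100 to 149 CpGs, 19 of 26 axon guidance promoters had a new peak, against 65.6% of all coding promoters of that class. With 150 to 199 CpGs it was 12 of 17, against 78.8%. Of those with 200 or more CpGs, 6 of 7 had one, against 78.8%. With 50 to 99 CpGs, 4 of 10 had a peak, against 28.9%, and with up to 49 CpGs 1 of 6, against 0.943%. The share of the axon guidance genes was below that of all coding genes at 150 to 199 CpGs and above it in the other 4 classes. Each difference rests on few genes and was not tested. In the class with up to 49 CpGs the difference rests on SEMA4A alone. Its peak overlaps the promoter by 28 bp, contains none of its CpGs and was not counted when an overlap of 100 bp was required.

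**Figure D1:**
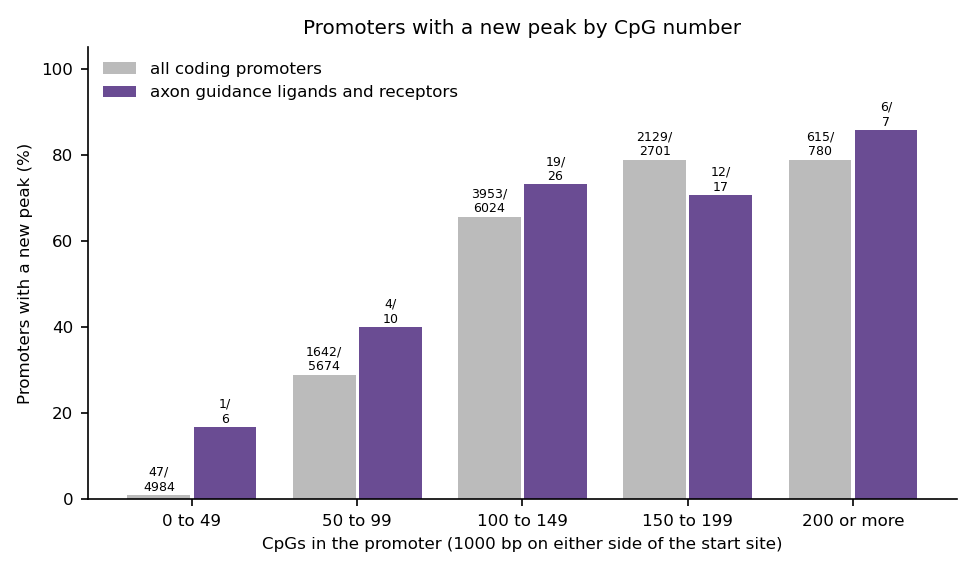
Share of promoters with a new peak (y axis, percent) by the number of CpGs in the promoter (x axis), for all coding genes in grey and the 66 axon guidance ligands and receptors in purple. The numbers over the bars are promoters with a peak and promoters in the class. Both shares rise from the CpG-poor class to 100 CpGs and more, where 19 of 26, 12 of 17 and 6 of 7 axon guidance promoters have a peak.

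A new peak was listed for 23 of 35 ligands (65.7%, interval 47.8% to 80.9%) and 19 of 31 receptors (61.3%, interval 42.2% to 78.2%), against 41.6% of all coding promoters. The difference between ligands and receptors was not tested. The median of the highest fold at the promoter was 9.93 for ligands and 8.69 for receptors. Over the 42 genes it was 9.45, with quartiles of 6.86 and 11.1, and over all coding promoters with a peak it was 8.26, with quartiles of 6.21 and 11.0. The fold is the authors' ratio of captured fragments at the summit of the peak to a background. Among the 42 genes, 16 reached a fold of 10, against 32.1% of all coding promoters with a peak, and 5 were under a fold of 5, against 12.4%. With only peaks of a −log10 q of 10 or more counted, 31 of the 66 genes had one, or 47.0%, against 24.6% of all coding genes, and with promoters of 500 bp on either side 39 had one, or 59.1%, against 39.9%.

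**Figure D2:**
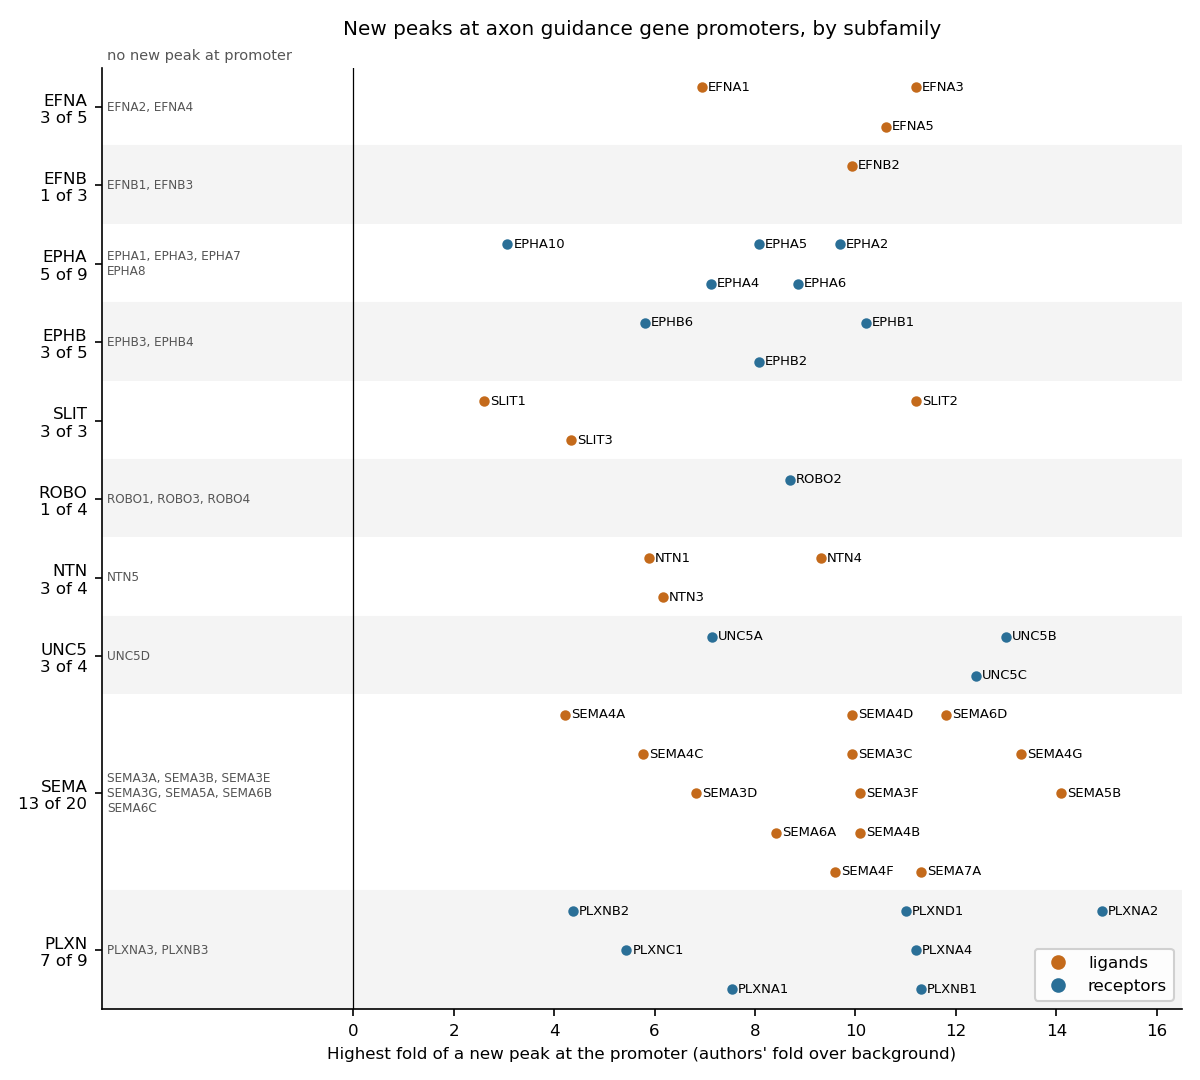
Highest fold of a new peak at the promoter (x axis, the authors' fold over background) for each axon guidance gene, by subfamily (y axis, with the number of genes with a peak and of all genes), ligands in orange and receptors in blue. Genes without a new peak at the promoter are named on the left. The folds run from 2.61 at SLIT1 to 14.9 at PLXNA2, and each subfamily has at least 1 gene with a peak.

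Of the 5 ephrin-A genes, which encode the lipid-anchored ligands, 3 had a new peak. The highest fold was at EFNA3, 11.2, in a peak of 1424 bp on chromosome 1 from 155052105 to 155053528, whose summit lies 1352 bp into the gene in intron 1, outside the promoter as defined here. A second peak at the EFNA3 promoter, from 155051188 to 155051511, covers the start site with a fold of 6.83. EFNA5 had a fold of 10.6 in a peak of 1606 bp that covers 159 of the 179 CpGs of its promoter. EFNA1 had the lowest value, a fold of 6.94 in a peak from 155099944 to 155100493 on chromosome 1 with its summit 187 bp upstream of the start. EFNA2 and EFNA4 had no peak at the promoter, although these held 208 and 116 CpGs.

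Among the ephrin-B genes, the transmembrane ligands, EFNB2 was the 1 of 3 with a peak. It had 2, with folds of 9.93 and 9.31, the first on chromosome 13 from 107188173 to 107188855 with its summit 385 bp upstream, and they lie on either side of the start site with a gap that contains it. Together they cover 201 of the 260 CpGs of the EFNB2 promoter, the most CpG-rich of the 66. EFNB3, with 102 CpGs, and EFNB1 on the X chromosome, with 148, had none.

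The Eph receptor tyrosine kinases had new peaks in 5 of 9 EPHA and 3 of 5 EPHB genes. EPHA2 led the first group with a fold of 9.69, in a peak of 1222 bp on chromosome 1 from 16481428 to 16482649 that covers the start site and 99 of its 120 promoter CpGs, with 16 fragments at a summit 179 bp into the gene. EPHA6 followed with 8.85, EPHA5 with 8.07 and EPHA4 with 7.12. EPHA10 was far below, with a fold of 3.07 in a peak of 400 bp from 38229797 to 38230196 on chromosome 1, where 17 fragments stood over a background rate of 4.86 at a summit 871 bp into the gene. The EPHA10 peak thus had 1 fragment more at its summit than that of EPHA2, over a higher background.

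EPHB1 had the highest fold of the Eph receptors, 10.2, in a peak of 1726 bp on chromosome 3 from 134513969 to 134515694, with 24 fragments at a summit 645 bp into the gene, in intron 1. EPHB2 had a fold of 8.08. At EPHB6, which encodes a receptor without kinase activity, the fold was 5.81, in a peak of 310 bp from 142552364 to 142552673 on chromosome 7 with 14 fragments at a summit 251 bp upstream of the start. EPHB3 and EPHB4, with 168 and 167 promoter CpGs, had no peak at the promoter, and these CpG numbers lie between the 136 of both EPHB1 and EPHB6 and the 214 of EPHB2.

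All 3 SLIT genes had a new peak that covers the start site, with promoter CpG numbers of 138 to 142 but folds that differed widely. At SLIT2 the fold was 11.2, from 17 fragments, in a peak of 1042 bp on chromosome 4 from 20253335 to 20254376 with its summit 613 bp into the gene. At SLIT3 it was 4.33, also from 17 fragments, in a peak of 261 bp. SLIT1 had the lowest fold of all 42 genes, 2.61, in a peak of 705 bp on chromosome 10 from 98945066 to 98945770. It also had 36 fragments at its summit, 564 bp into the gene, the second highest number of the 42, and the highest background rate, 13.2. The Slit with the lowest fold thus had the most fragments. SLIT2 alone of the 3 was counted when peaks under the list's median fold, 7.45, or under a −log10 q of 10 were left out.

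Of the Robo receptors, ROBO2 alone had a new peak at its canonical promoter, with a fold of 8.69 in a peak of 551 bp on chromosome 3 from 77088630 to 77089180. It ends 70 bp upstream of the start and has 13 fragments at a summit 264 bp upstream. ROBO1 and ROBO4 start outside CpG islands in promoters with 51 and 27 CpGs, and ROBO3 has 113. The count for the Robos depended on where a promoter was drawn. With any annotated start site of the gene it became 3 of 4, since ROBO1 has a peak with a fold of 9.31 at a start within what is intron 3 of the canonical transcript, 749107 bp downstream, and ROBO3 has one with a fold of 4.78 at another annotated start.

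The netrins, secreted ligands related to laminins, had a new peak in 3 of 4 genes (interval 19.4% to 99.4%), against 41.6% of all coding promoters. NTN4 had a fold of 9.31 in a peak of 979 bp on chromosome 12 from 96183847 to 96184825, with 14 fragments at a summit 457 bp into the gene. NTN3 had a fold of 6.17, with 37 fragments at the summit, the highest number of the 42 genes, over a rate of 5.16. NTN1, the best known of them as an attractant of commissural axons, had 2 peaks on either side of its start. The one with the higher fold, 5.88, runs from 8924120 to 8924621 on chromosome 17, with 24 fragments over 3.25 at a summit 614 bp upstream. The other has a fold of 3.52. NTN5, which starts outside an island with 67 CpGs, had none.

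Their UNC5 receptors, which mediate repulsion by netrin, had a peak in 3 of 4 genes (interval 19.4% to 99.4%), against 41.6% of all coding promoters. All 3 peaks cover the start site. UNC5B had a fold of 13.0, with 20 fragments at a summit 90 bp into the gene, in a peak of 1322 bp on chromosome 10 from 72972081 to 72973402. UNC5C followed with 12.4 in a peak of 1122 bp. UNC5A had the lowest fold of the 3, 7.14, but the widest promoter peak of all 42 genes, 1842 bp from 176236666 to 176238507 on chromosome 5, with 21 fragments at a summit 831 bp into the gene and with 190 of the 194 promoter CpGs under it. UNC5D had no peak in its promoter of 140 CpGs, and the nearest new peak lies 1668304 bp away, the longest distance of the 66 genes.

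The semaphorins, the largest group, had a new peak in 13 of 20 genes, or 65.0% (interval 40.8% to 84.6%), against 41.6% of all coding promoters. The classes hold few genes each, and differences between them were not tested. All 6 class 4 genes had one, 3 of 7 class 3 genes, 2 of 4 class 6 genes, 1 of 2 class 5 genes and the single class 7 gene. SEMA5B led with a fold of 14.1, from 28 fragments, in a peak of 1281 bp on chromosome 3 from 122745722 to 122747002 with its summit 193 bp into the gene. Among the transmembrane class 4 genes the folds were 13.3 at SEMA4G, 10.1 at SEMA4B, 9.93 at SEMA4D, 9.59 at SEMA4F and 5.78 at SEMA4C. SEMA4A had 4.22, the lowest of the semaphorins, in a peak of 281 bp on chromosome 1 from 156124349 to 156124629 that overlaps the promoter by 28 bp, contains no CpG of it and has 12 fragments at a summit 1145 bp into the gene. SEMA4A is the only class 4 gene whose promoter overlaps no CpG island.

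Of the secreted class 3 semaphorins, SEMA3F had a fold of 10.1, SEMA3C of 9.93 and SEMA3D of 6.83, the last from 10 fragments, the fewest of the 42 genes. The 4 without a peak, SEMA3A, SEMA3B, SEMA3E and SEMA3G, have 26, 35, 33 and 55 CpGs in the promoter, fewer than the 90 to 187 of the 3 with one. SEMA3A is known for collapsing growth cones, and its nearest new peak lies 991499 bp from the start. Among the remaining semaphorins the folds were 11.8 at SEMA6D, 11.3 at SEMA7A, which carries a lipid anchor, and 8.42 at SEMA6A. SEMA5A, SEMA6B and SEMA6C had no peak at the promoter.

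The plexins, the receptors of the semaphorins, had a peak in 7 of 9 genes, or 77.8% (interval 40.0% to 97.2%), against 41.6% of all coding promoters. PLXNA2 had the highest fold of the 66 genes, 14.9, which is above that of 93.9% of all coding promoters with a peak. Its peak of 1588 bp on chromosome 1 from 208416467 to 208418054 covers the whole CpG island with its 176 CpGs, and 23 fragments stood over a rate of 0.611 at a summit 692 bp into the gene, in the untranslated beginning of exon 1. The folds were 11.3 at PLXNB1, 11.2 at PLXNA4, 11.0 at PLXND1, 7.54 at PLXNA1 and 5.44 at PLXNC1. PLXNB2 had the lowest, 4.38, in a peak of 391 bp from 50745537 to 50745927 on chromosome 22, with 15 fragments at a summit 235 bp into the gene. The plexins without a peak, PLXNA3 and PLXNB3, are both on the X chromosome.

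None of the 3 axon guidance genes on X, EFNB1, PLXNA3 and PLXNB3, had a new peak, against 42 of 63 on chromosomes 1 to 22, or 66.7%. Over all coding genes, 8.17% of the promoters on X had a peak and 43.2% of those on chromosomes 1 to 22. Among promoters in islands the shares were 12.8% on X and 59.3% on chromosomes 1 to 22. With 0 of 3 genes, the exact binomial interval for the share on X runs from 0% to 70.8%. EFNB1 and PLXNA3 have 148 and 165 promoter CpGs, and PLXNB3, outside an island, has 55.

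The position of the peaks was compared with that of all coding promoters with a new peak. The start site itself was covered in 26 of the 42 genes, or 61.9%, against 64.3%, and the summit of the peak with the highest fold lay downstream of the start in 28, or 66.7%, against 70.5%. It was upstream of the start in 14 genes, in an intron in 13, in the 5′ untranslated part of an exon in 10 and in a coding exon in 5. The counts for introns and exons are given for the 42 genes only, without a share over all coding promoters. The peaks were wider, with a median of 737 bp against 594 bp, and reached farther to both sides of the start. At 400 bp upstream, 40.5% of the 42 promoters were under a new peak, against 25.1% of the 8386 coding promoters with one. At 800 bp downstream of the start, it was 52.4% against 20.4%, and at 1000 bp downstream 28.6% against 11.9%. At 200 bp downstream it was 64.3% against 72.5%. More than 1 peak was listed at 8 of the 42 promoters, or 19.0%, against 12.5%. These are EFNA3, EFNB2, EPHA4, EPHA5, NTN1, PLXNA4, PLXNC1 and SEMA6A.

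**Figure D3:**
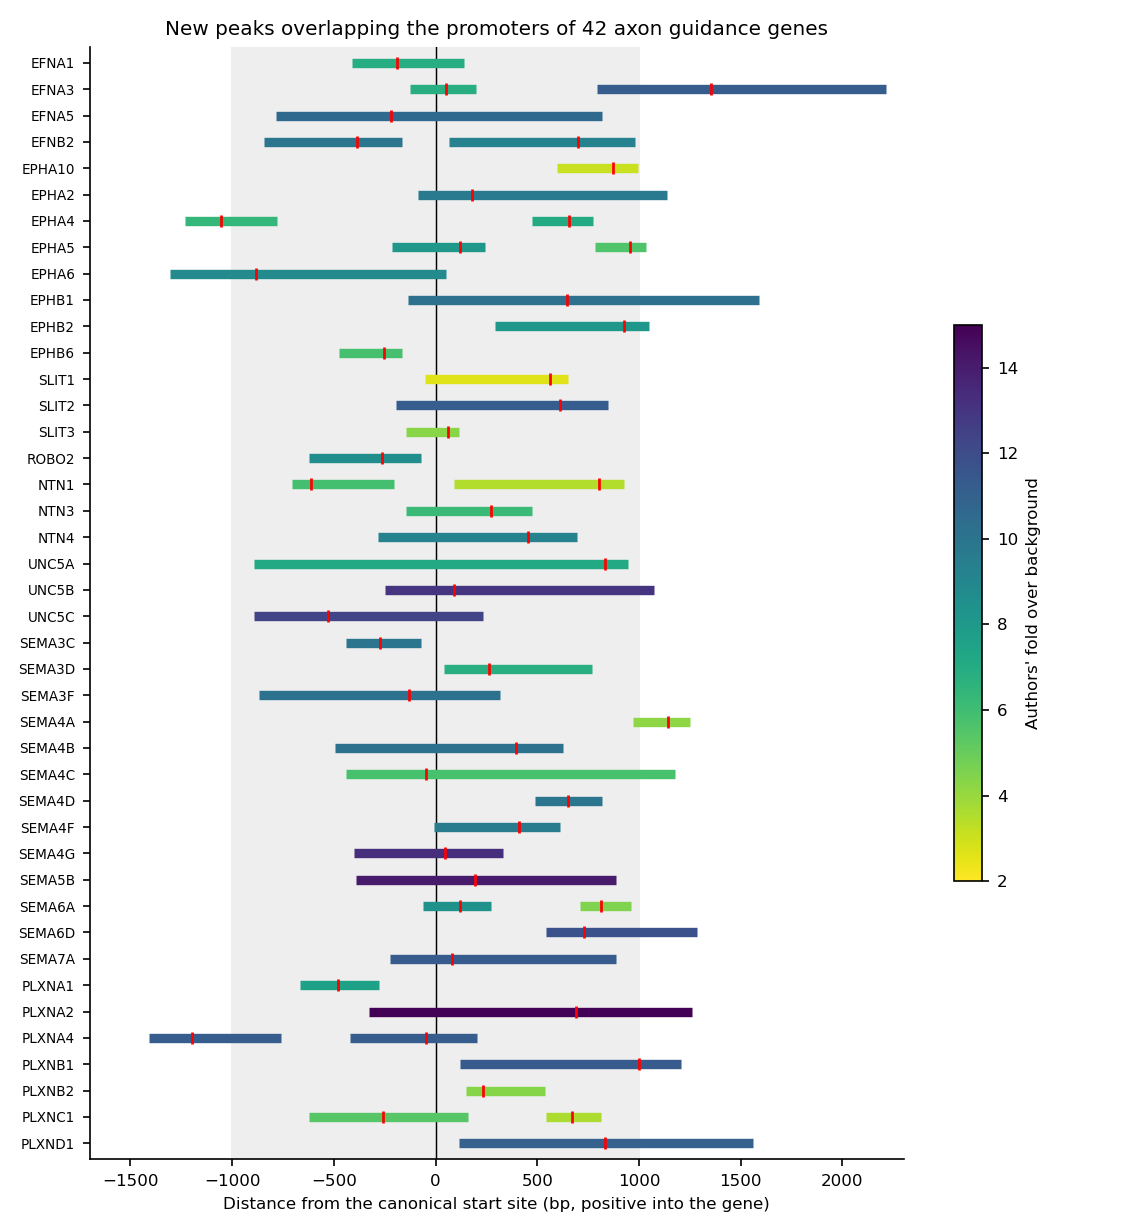
New peaks at the 42 axon guidance promoters that have one, a gene per line, drawn to scale by distance from the canonical start site (x axis, bp, positive into the gene), with the colour giving the authors' fold, red ticks the summits and the grey band the promoter. The peaks of 26 genes cross the start site, the summits of 1 peak each at SEMA4A, EFNA3, EPHA4 and PLXNA4 lie beyond 1000 bp, and EFNB2, NTN1 and EPHA4 have a peak on either side of an uncovered start.

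The CpG islands at these promoters were long. The island with the most CpGs at each promoter had a median of 140 CpGs and 1399 bp over the 56 genes in islands, against 92 CpGs and 892 bp over all coding promoters in islands. Whether island length accounts for the wider peaks was not tested. In the 41 genes with a peak and an island, the new peaks covered a median of 68.8% of the island, from 16.2% at PLXNA1 to 100% at UNC5A and PLXNA2, and over all coding genes the median was 67.3%. High cover was no more common than elsewhere. The upper quartile was 84.8%, against 88.7% over all coding genes, and 2 of the 41 islands were covered fully, against 941 of 8306. At least 80% was covered in 13 genes, UNC5C, SEMA3F and SEMA4F among them with 97.1%, 95.2% and 94.2%. PLXNA1 stood at the other end, with 249 CpGs in its island and 27 of them under the peak. Low cover was found in islands of different length, 22.3% of 3409 bp at EPHA4 and 29.2% of 846 bp at SLIT3, while 69.4% of the 4136 bp at EFNA3 was covered.

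None of the 42 genes shared its peaks with the promoter of another coding gene, whereas 17.4% of all coding promoters with a new peak did.

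The number of fragments and the background behind each fold were recovered from the listed fold and p-value with the formulas of the peak caller MACS2, which the submitters' processing notes name. That MACS2 made this list is an inference from its layout and from these values. The fragments at the summit of the 42 genes ranged from 10 to 37 with a median of 17, the same median as over all coding promoters with a peak. In 14 of them, or 33.3%, the background was the lowest rate of the list, 0.611 fragments, against 35.5% of all. At this rate each number of fragments gives a single fold, and EFNB2, SEMA3C and SEMA4D share 9.93 with 15 fragments each, as EFNA3, SLIT2 and PLXNA4 share 11.2 with 17 each. The median rate was 1.06, against 0.720. A rate over 3 was found in 5 genes, EPHA10, SLIT1, SLIT3, NTN1 and NTN3. The lowest folds of the 42 genes, those of SLIT1 and EPHA10, are in this group, and NTN3 and SLIT1 in it have the most fragments of all 42.

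**Figure D4:**
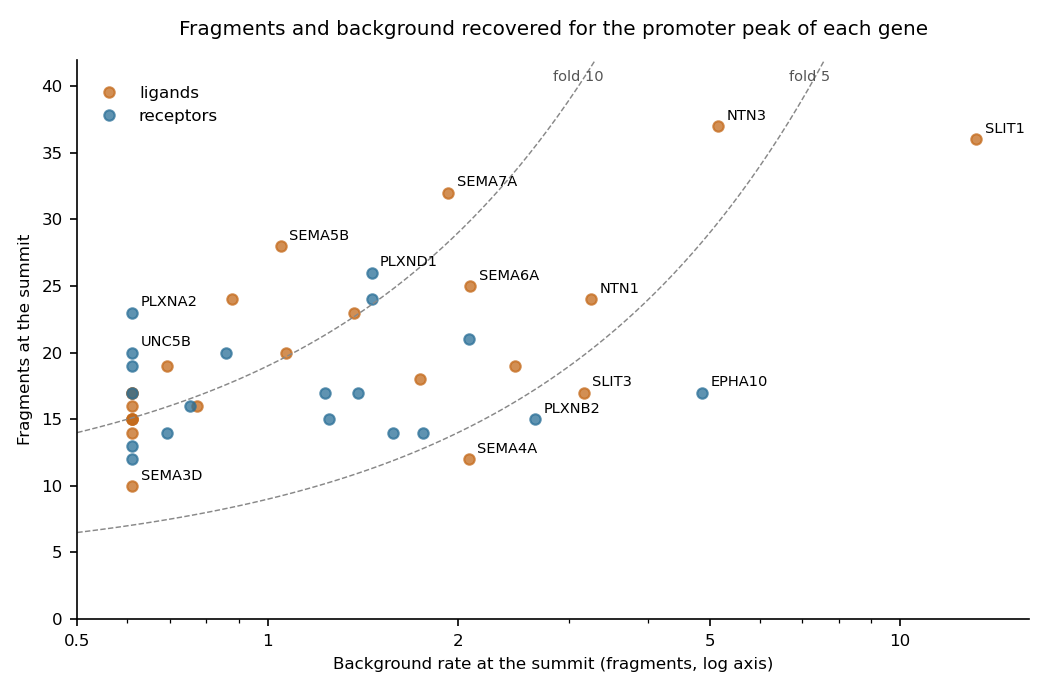
Fragments at the summit (y axis) against the background rate (x axis, fragments, log scale) for the highest-fold peak of each of the 42 axon guidance promoters, ligands in orange and receptors in blue, with dashed lines at folds of 5 and 10; darker points are overlapping genes. The column at the left is the 14 genes at the lowest rate of 0.611, and SLIT1 and NTN3 stand apart with 36 and 37 fragments over rates of 13.2 and 5.16.

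Of the 24 genes without a new peak at the canonical promoter, 15 have a promoter that overlaps a CpG island and 9 do not. The 9 are EPHA3, ROBO1, ROBO4, NTN5, PLXNB3, SEMA3A, SEMA3B, SEMA3E and SEMA6B. The 15 are EPHA1, EPHA7, EPHA8, EPHB3, EPHB4, EFNA2, EFNA4, EFNB1, EFNB3, ROBO3, UNC5D, PLXNA3, SEMA3G, SEMA5A and SEMA6C. EFNA2 had the most promoter CpGs of them, 208, then SEMA5A with 173, EPHB3 with 168, EPHB4 with 167 and PLXNA3 with 165. The fewest, 55, were at SEMA3G, followed by EPHA1 with 77. EPHA8, with 151, EFNA4, with 116, and SEMA6C, with 126, had their nearest new peak 111057, 11814 and 38862 bp away. It lay at 6770 bp for EPHB3, 10498 bp for ROBO3, 27108 bp for EPHA1, 24697 bp for EPHB4, 53285 bp for EFNB3 and 34231 bp for SEMA3G. On X it was 181081 bp from EFNB1 and 13570 bp from PLXNA3.

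For 2 of these genes the peak lies in the same island as the start site but beyond the promoter limit. At SEMA5A, a peak with a fold of 4.55 begins 1124 bp into the gene, and at EPHA7 one with a fold of 8.26 begins 2237 bp into the gene, in islands of 2023 and 3405 bp. Near the limit of 1000 bp, SEMA4A is the last gene counted, with its peak 973 bp from the start, and before it come EPHA10 at 596 bp and SEMA6D at 544 bp. The first gene not counted is ROBO1, at 1123 bp and with a fold of 9.31, then SEMA5A, then SEMA3B at 1397 bp upstream with a fold of 5.59, and EFNA2 at 1704 bp with a fold of 2.62.

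Beyond the canonical promoters, 20 of the 66 genes, or 30.3%, had at least 1 further new peak within the span of the gene, against 12.4% of all coding genes. The axon guidance genes are longer, with a median of 53080 bp against 27219 bp, and the part of gene length in this difference was not tested. There were 29 such peaks. The single one of NTN3 has its summit downstream of the canonical transcript and overlaps the promoter of TBC1D24. Of the 29, 26 overlapped a CpG island and 14 lay at another annotated start of the gene. The summits of 15 were within 5000 bp of the canonical start, and 16 were in intron 1. These shares were not taken over the further peaks of all coding genes, so they do not set the axon guidance genes apart. The highest folds were 18.0 in intron 1 of EFNA3, 3319 bp from the start, 16.1 in intron 1 of UNC5A at 7376 bp, and 13.0 in intron 1 of UNC5B at 4851 bp. The first 2 of these exceed the fold of every promoter peak of the 66 genes. SLIT2 had 3 further peaks within one island of 3592 bp at its start, with folds of 8.07, 7.08 and 10.6, and EPHB3 had a peak with a fold of 10.4 in intron 1, 7570 bp from its uncovered start. SEMA6D had 2 peaks at other annotated starts, with summits 533202 and 532677 bp upstream of the canonical one and folds of 8.69 and 6.49. Of the 24 genes without a peak at the canonical promoter, 8 had one elsewhere in the gene and 16 had none.

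A fixed list of 56 other genes that act in axon guidance, grouped by function, was chosen with earlier results of these data known. Of these, 43 had a new peak at the promoter, or 76.8% (interval 63.6% to 87.0%, counting error only), against 41.6% of all coding promoters. Among promoters in islands it was 42 of 49, or 85.7%, against 57.4%. The median fold of the 43 genes was 9.31. The promoters of the 56 genes held a median of 151 CpGs, against 96 over all coding genes. Of all coding promoters with 150 to 199 CpGs, 78.8% had a new peak. Whether CpG number accounts for the higher share of the 56 genes was not tested. Co-receptors and other surface proteins had one in 7 of 11 genes, other ligands in 7 of 9 and intracellular effectors in 29 of 36. NRP1, a neuropilin that pairs with plexins to bind class 3 semaphorins, had a fold of 23.6, while its paralogue NRP2 had no peak. NEO1, a receptor of netrins and of repulsive guidance molecules, had 9.31, and its relative DCC, outside an island with 79 CpGs, had none. The highest fold among the effectors was 24.8 at SRGAP1, a GTPase-activating protein that acts downstream of Robo, and the highest among the other ligands was 13.6 at RGMB. Of the 56 genes, 5 had a fold above the 14.9 of PLXNA2, the other 3 being PAK1 with 16.1, MICAL3 with 15.9 and DPYSL3 with 15.3.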

How the data were processed

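Genomic DNA of HEK293 cells was enriched with GST-MBD2 and sequenced, 1 library per condition. The methods state alignment by the authors to hg19, using Bowtie2 with defaults. FastQC, deepTools and MACS2 are further named in the submitters' processing notes. The depth of the library was not used here, and precision is limited by the fragments at each summit. The deposited list has 10 columns. The deposited fold is a ratio of fragments at the summit to a background, each with 1 added. The deposited significance is given as −log10 p-value and −log10 q-value, the smallest −log10 q being 2.00. The deposited score equals the −log10 q times 10, rounded down, in 100% of the peaks and was not used. The peak settings are not given in the sources used here. No peak passed the end of its chromosome in GRCh37, the build of hg19.

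Start sites were those of canonical transcripts, or the gene end for 282 genes without one in the lifted annotation. An overlap of 1 bp counted. CpG islands were segments scored 17 per CpG and -1 per other base, over 200 bp, with at least 50% GC and an observed/expected CpG ratio over 0.6, without repeat masking, which gave 51436. Fragments and background rates were recovered by finding the whole number that best gave the listed p-value as a Poisson probability, within 0.000403. The second best number missed by a median of 0.261. These steps were tested on simulated data. Shares have 95% exact binomial intervals.

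The genes and lists were chosen with earlier results of these data known. By the rule for named genes, the highest and the lowest fold of each subfamily are given in full, with the other folds, the CpGs of promoters without a peak and the highest fold of each group of other genes. The sequences of EFNA5, SEMA3F and SEMA3A were added after their values were seen. The alternatives tried changed the peak threshold, the overlap rule, the promoter width, the start site, the island criteria and the members. Scripts ran in Python 3.11.15 with pandas 2.3.3, numpy 2.4.6, numba 0.67.0, scipy 1.17.1 and matplotlib 3.10.9, besides samtools 1.23.1.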

Additional observations from a re-analysis of the deposited data

How the results depend on the processing

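Of 119 values recomputed under the alternatives, 108 stayed within 1.5 times of the value reported. When peaks under the list's median fold, 7.45, were left out, the promoters with a new peak fell to 5157 over all coding genes, and the counts to 3 for EPHA, 1 for SLIT, 1 for NTN and 15 for ligands. With a −log10 q of at least 10 they were 4967 over all coding genes, 2 for EPHA and 1 for SLIT. For ROBO the count rose to 2 with promoters of 2000 bp on either side and to 3 with any annotated start site. Adding NTNG1 and NTNG2 to the netrins gave 5. The count of axon guidance genes with a peak was 28 at the median fold and 31 at the stricter q, or 42.4% and 47.0%, against 25.6% and 24.6% of all coding genes. It was 41 with the summit inside the promoter or with an overlap of 100 bp, where SEMA4A was lost, 39 with 500 bp on either side, and 46 with 2000 bp or with any annotated start. After seeing the data, UNC50 was also counted, which gave 43, and the genes on chromosomes 1 to 22 alone, which gave 42. No paired analysis was possible because the study has a single library for each condition. Settings of the peak caller and other libraries were not examined.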
